A study of Mus musculus with 18 samples.

Results

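The genes described here are 33 genes of fatty acid oxidation and targets of the peroxisome proliferator-activated receptors (PPARs), taken by gene symbol out of 21018 genes in the count tables of an RNA-Seq study of mouse liver. All 33 were found in each of the 3 tables. They hold 16 enzymes and carriers of mitochondria, 6 enzymes of peroxisomes, 2 enzymes found in both, 1 enzyme of ketone bodies, 4 genes of fatty acid uptake, binding and activation, and 4 other PPAR targets. The study injected 12-week-old male C57/B6J mice intraperitoneally with IL-1β at 20 µg/kg (mice ILB.9579, ILB.9582 and ILB.9583) or with saline (mice UNT.9574, UNT.9575 and UNT.9576) and took perfused livers after 4 h. RNA of each mouse entered 3 library kits: Pico, a stranded total RNA kit given 1.7 to 2.6 ng, V4, an unstranded poly(A) kit given 0.8 to 1.3 ng, and TruSeq, a stranded poly(A) kit given 200 ng. The reads were 150 bp for Pico and V4 and 125 bp for TruSeq. No genotype other than the strain is stated, the mice had free access to food, and the RNA of 3 mice per treatment stands behind every value, so the kits are repeated measures of the same animals. Kit, RNA amount, read length and sequencing run cannot be told apart, and responses were therefore tested within each kit. The study set the kits against each other on this response of the liver, and the comparisons here are IL-1β against saline in each kit and mitochondrial against peroxisomal enzymes.

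Fatty acids enter hepatocytes, are bound by Fabp1, and are activated to acyl-CoA by long-chain acyl-CoA synthetases. Mitochondria import long-chain acyl-CoA through the carnitine shuttle and shorten it in a cycle of dehydrogenation, hydration, a further dehydrogenation and thiolysis, and peroxisomes run a similar cycle for very long-chain and branched fatty acids. PPARα, the receptor encoded by Ppara, raises many genes of both pathways in fasting, and the acute-phase response that IL-1β starts is known to alter lipid metabolism in the liver.

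After IL-1β more of these genes fell than rose in every kit. In TruSeq 20 of the 33 genes fell, where 21.8% of all 19424 genes tested fell, and 2 rose, where 12.3% of all genes rose. In Pico 15 fell, beside 10.8% of 18108 genes, and 0 rose, beside 6.78%. In V4 10 fell, beside 7.41% of 18051 genes, and 2 rose, beside 3.6%. A gene is said here to have fallen or risen when limma-voom, fitted to all genes of the kit, gave an adjusted p of at most 0.05. The shares are over every gene with at least 1 count, including genes of very low count that are hard to call. Of the 33 members, 31 averaged 20 counts or more in each kit, a level that 8960 genes reached. Shares among genes of that level are not given here. For the 0 that rose in Pico, 3 genes had an unadjusted p under 0.05 and a higher mean, edgeR called 3 and DESeq2 called 2. The median log2 fold change of the 33 genes stood at -0.40 in TruSeq, -0.43 in Pico and -0.41 in V4, against -0.17, -0.12 and -0.22 over all genes. In these bulk samples fewer cells of a type and less RNA per cell cannot be told apart.

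The scaling of the libraries matters for this count. With TMM factors in place of library totals, the middle of the log2 fold changes of all genes moved up by 0.16 in TruSeq, 0.13 in Pico and 0.17 in V4. The counts of lower and higher members then became 10 and 2 in Pico (8.16% and 9.16% of all genes), 5 and 2 in V4 (4.84% and 4.79%) and 14 and 4 in TruSeq (16.1% and 16.7%). The median of the 33 genes under TMM was -0.24 in TruSeq, -0.30 in Pico and -0.25 in V4, against -0.01, 0.02 and -0.06 over all genes. With library totals 9 genes fell in all 3 kits, namely Slc25a20, Cpt2, Hadh, Acaa2, Decr1, Hsd17b4, Crat, Bdh1 and Acsl1. With TMM factors 4 of these still did, Hadh, Acaa2, Bdh1 and Acsl1. Hadh, Bdh1 and Acsl1 were also called lower in all 3 kits by edgeR and by DESeq2. Neither tool called Acaa2 in V4 (adjusted p = 0.136 and 0.0602), Slc25a20 in Pico (0.0820 and 0.105) or Cpt2 in V4 (0.117 and 0.0719). In V4 edgeR also missed Slc25a20, Decr1, Hsd17b4 and Crat (0.0774, 0.0674, 0.0832 and 0.0612). Outside V4, edgeR missed Decr1 in Pico (0.0555) and Cpt2 in TruSeq (0.0502), and DESeq2 missed Crat in Pico (0.0755). With library totals another 5 fell in 2 kits (Acadl, Hadha, Hadhb, Decr2 and Fabp1) and 8 in 1 kit (Acadvl, Acads, Eci1, Etfa, Etfb, Etfdh, Ehhadh and Ech1). Of these 8, Etfb alone was called in any kit with TMM factors, edgeR or DESeq2. Angptl4 and Fgf21 rose in V4 and TruSeq. By limma-voom with library totals the other 9 were called in no kit: Cpt1a, Acadm, Acaa1a, Acaa1b, Crot, Cd36, Acsl5, Pdk4 and Pex11a. Of these, Cd36, Pdk4 and Pex11a were called higher in at least 1 kit with TMM factors, edgeR and DESeq2. Without the test, every IL-1β library lay below every saline library in CPM (counts-per-million of the library total) for 22 members in TruSeq (27.9% of all genes), 19 in Pico (18.6%) and 17 in V4 (18.6%), and above for 2, 2 and 3 (17.1%, 12.6% and 9.09%).

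**Figure D1:**
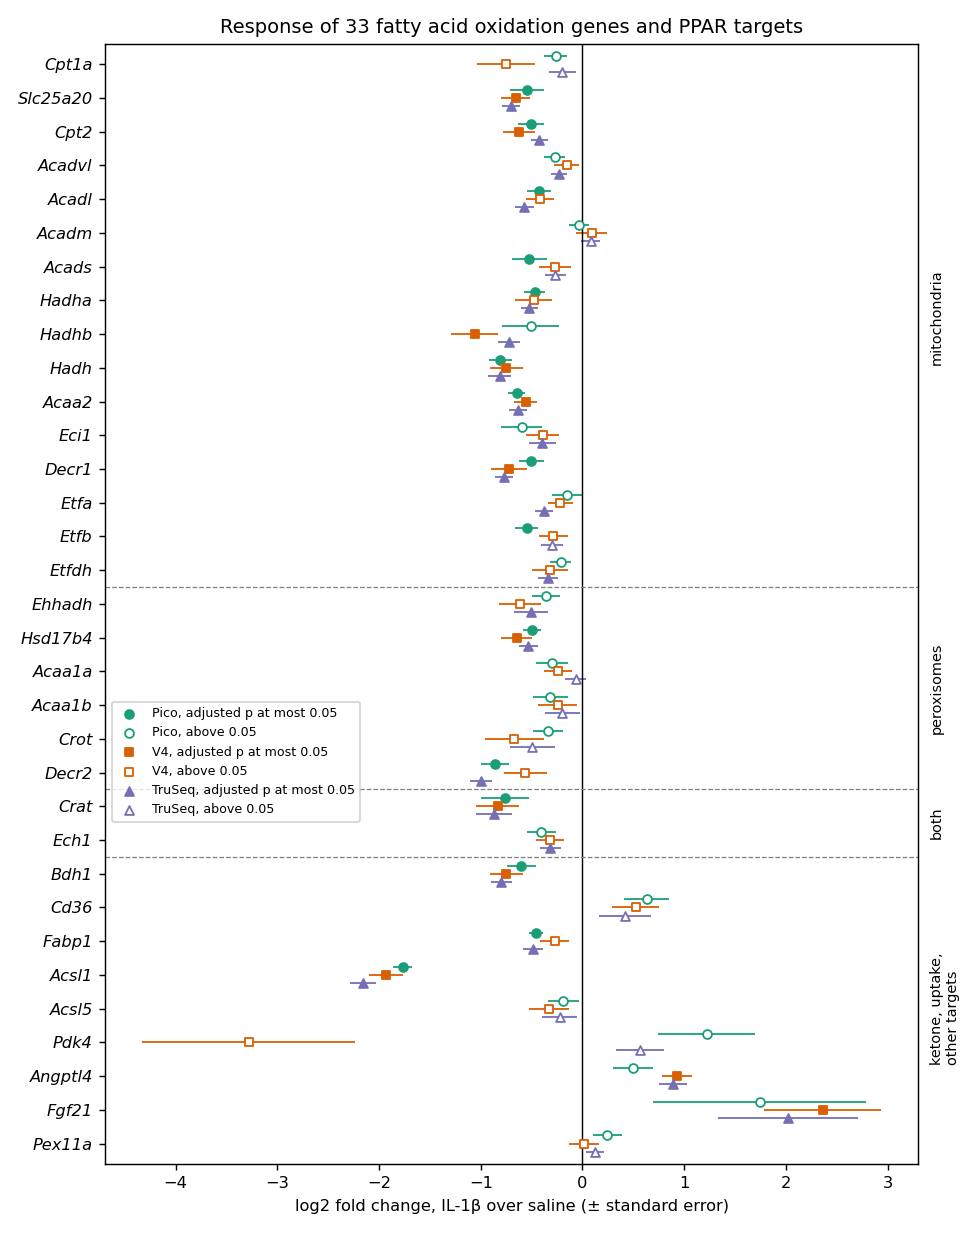
Log2 fold change of IL-1β over saline for each of the 33 genes, with its standard error, in Pico (circles), V4 (squares) and TruSeq (triangles), from 3 mice per treatment. Filled symbols passed an adjusted p of 0.05. Most points lie left of 0, Acsl1 lies farthest left in Pico and TruSeq, and Pdk4 lies right of 0 in Pico and TruSeq and left of it in V4.

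In the values below, counts are whole reads of a library, given in the order ILB.9579, ILB.9582 and ILB.9583 for IL-1β and UNT.9574, UNT.9575 and UNT.9576 for saline. Library totals of all genes lay between 12348864 and 12858237 in TruSeq, 4024632 and 4134070 in Pico, and 12013453 and 12352473 in V4, so counts of a gene may be read side by side within a kit, and Pico counts carry more counting error. Gene positions are those of the mm9 annotation.

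The largest fall was that of Acsl1 (chr8:47556395-47621405, plus strand), a long-chain acyl-CoA synthetase that activates fatty acids for both oxidation and lipid synthesis. TruSeq counted 4369, 3300 and 3021 Acsl1 reads after IL-1β and 15387, 17197 and 16033 after saline. The Pico libraries held 1520, 1158 and 1249 against 4491, 4512 and 4544, and the V4 libraries 2016, 1804 and 1525 against 7209, 7597 and 5725. The treatments did not overlap in any kit, and the lowest saline library held over 2-fold more than the highest IL-1β library. The log2 fold change was -2.16 ± 0.13 (SE, adjusted p = 5.18e-06) in TruSeq, -1.77 ± 0.09 (adjusted p = 1.95e-09) in Pico and -1.93 ± 0.17 (adjusted p = 7.45e-05) in V4, which are falls of 4.46-fold, 3.41-fold and 3.82-fold. Its paralog Acsl5, a synthetase of the same family, gave -0.23, -0.19 and -0.33 in TruSeq, Pico and V4, was called in no kit, and its treatments overlapped in each. Fabp1, the abundant fatty acid-binding protein of the liver, fell in Pico (-0.46 ± 0.07, adjusted p = 0.000196) and TruSeq (-0.48 ± 0.10, adjusted p = 0.00454) and gave -0.28 ± 0.14 in V4 (adjusted p = 0.264), where IL-1β mouse ILB.9579 lay among the saline mice. Cd36, a fatty acid translocase of low abundance in hepatocytes, had log2 fold changes of 0.63, 0.52 and 0.42 in Pico, V4 and TruSeq, none of them called by limma-voom with library totals (adjusted p = 0.0577, 0.191 and 0.251). Its IL-1β libraries lay above the saline ones in Pico and V4 and overlapped in TruSeq, and with TMM factors it was called higher in Pico (adjusted p = 0.0189). DESeq2 called it higher in all 3 kits (adjusted p = 0.0494, 0.0118 and 0.0489 in TruSeq, Pico and V4) and edgeR in Pico (0.000986).

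**Figure D2:**
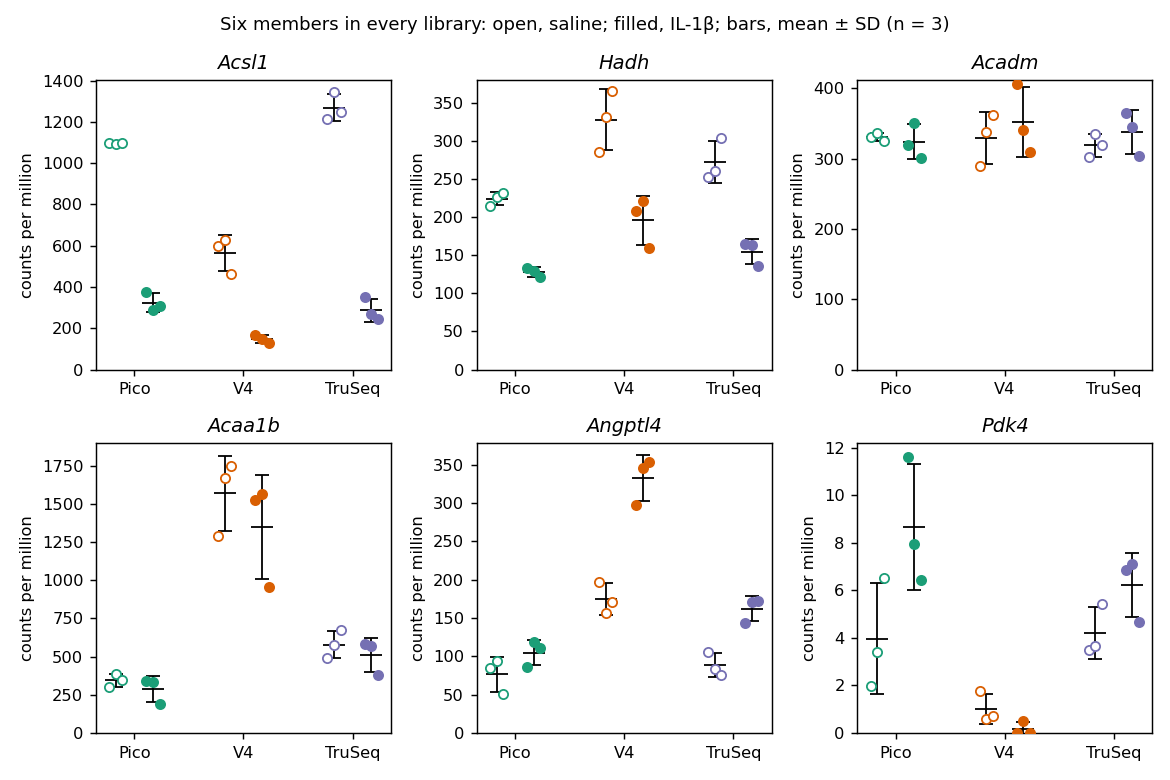
CPM of 6 of the genes in every library of the 3 kits. Open points are saline mice, filled points IL-1β mice, and bars give the mean and SD of 3 mice. Acsl1 and Hadh were lower after IL-1β in every library, Acadm and Acaa1b overlapped in each kit, Angptl4 overlapped in Pico alone, and the 3 IL-1β libraries of Pdk4 in V4 lie at or near 0.

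Promoter sequences were taken from RefSeq (GRCm38.p6) for 28 of the 33 genes. Those of Decr1, Acaa2, Hsd17b4 and Crat, which fell in all kits, and of Angptl4 were not available and not searched. The direct repeat that PPARα binds together with a retinoid X receptor, and that HNF4A and other receptors also bind, was searched on both strands as AGGTCANAGGTCA from 250 bases before to 50 after each start site. With at most 2 mismatches over its 12 fixed bases it was found for 4 genes, or 14.3% of the 28, against 4.40% of all 27025 genes in the table. With at most 1 mismatch it was found for 1 member, Fabp1, and for 0.644% of all genes, and with 0 mismatches for no member and 0.0481% of all genes. The 3 upstream matches and the match just inside the Slc25a20 transcript are shown in capitals, each within its strand of the gene, because these genes include the most abundant member (Fabp1) and a shuttle gene that fell in all 3 kits (Slc25a20). The same stretch before both start sites of Acsl1, the member with the largest fall, is shown for comparison and holds no match of these letters, which says nothing of sites elsewhere.
Fabp1, chr6:71199729-71199878, plus strand, 1 mismatch: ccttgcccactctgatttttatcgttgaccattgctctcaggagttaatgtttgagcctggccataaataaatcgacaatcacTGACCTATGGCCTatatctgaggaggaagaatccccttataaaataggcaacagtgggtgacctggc
Etfa, chr9:55512244-55512393, minus strand, 2 mismatches: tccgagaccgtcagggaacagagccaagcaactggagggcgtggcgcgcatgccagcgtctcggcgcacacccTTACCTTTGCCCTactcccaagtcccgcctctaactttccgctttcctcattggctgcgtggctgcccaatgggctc
Cd36, chr5:17835897-17836046, minus strand, 2 mismatches: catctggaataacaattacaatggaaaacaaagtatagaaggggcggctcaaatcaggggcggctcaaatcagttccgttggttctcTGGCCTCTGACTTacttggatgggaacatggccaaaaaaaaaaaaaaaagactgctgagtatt
Slc25a20, chr9:108662135-108662161, plus strand, 2 mismatches: tgaatgtAGGTGAAAGGTCGgcggagc
Acsl1, upstream start, chr8:46470887-46471036, plus strand: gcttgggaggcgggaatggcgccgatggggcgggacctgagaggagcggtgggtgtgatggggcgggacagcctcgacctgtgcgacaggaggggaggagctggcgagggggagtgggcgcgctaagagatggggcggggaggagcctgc
Acsl1, downstream start, chr8:46490816-46490965, plus strand: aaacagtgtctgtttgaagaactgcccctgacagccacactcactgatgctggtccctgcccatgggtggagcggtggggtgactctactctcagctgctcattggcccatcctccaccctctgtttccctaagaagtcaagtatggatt
The matches start 67 bases before the start site in Fabp1, 77 in Etfa and 63 in Cd36, all on the opposite strand, and at base 7 of the transcript in Slc25a20, on its own strand. The responses of these 4 genes ranged from the fall of Slc25a20 in all kits to the higher mean of Cd36. The change of Cd36 was uncalled by limma-voom with library totals but called by DESeq2. A shared direction was not seen among the 4 genes.

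The carnitine shuttle has 3 members, of which the carrier and the inner-membrane transferase fell in every kit. Slc25a20, the carnitine-acylcarnitine carrier (chr9:108564429-108586972, plus strand), had 870, 874 and 882 TruSeq counts after IL-1β and 1458, 1516 and 1433 after saline. Pico held 156, 210 and 179 against 277, 284 and 246, and V4 held 1499, 1681 and 1478 against 2503, 2477 and 2390. The treatments were apart in each kit, and the log2 fold changes were -0.70 ± 0.09 (adjusted p = 0.000266) in TruSeq, -0.55 ± 0.17 (0.0325) in Pico and -0.66 ± 0.14 (0.0151) in V4. Cpt2, the transferase that reforms acyl-CoA inside mitochondria (chr4:107576586-107596215, minus strand), had 1515, 1557 and 1509 TruSeq counts against 2005, 2129 and 2206. Its Pico counts were 481, 468 and 421 against 637, 620 and 727, and its V4 counts 1907, 2353 and 1820 against 2813, 3355 and 3197. Here too no IL-1β library reached a saline one, with log2 fold changes of -0.42 ± 0.09 (adjusted p = 0.00412), -0.51 ± 0.12 (0.00852) and -0.62 ± 0.16 (0.0268) in TruSeq, Pico and V4.

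Cpt1a, the outer-membrane transferase that controls entry into mitochondria (chr19:3323301-3385732, plus strand), was called in no kit. Its TruSeq counts were 4286, 5270 and 5854 after IL-1β and 6675, 6207 and 5258 after saline. Pico gave 1259, 1453 and 1745 against 1859, 1807 and 1741, and V4 gave 888, 1696 and 1532 against 2809, 2585 and 1534. The treatments overlapped in each kit, since UNT.9576, the lowest saline mouse, lay below the highest IL-1β mouse. ILB.9579 was the lowest IL-1β mouse in all 3. The log2 fold change was -0.20 in TruSeq (95% interval -0.50 to 0.11, adjusted p = 0.312), -0.26 in Pico (-0.50 to -0.03, adjusted p = 0.119) and -0.75 in V4 (-1.38 to -0.12, adjusted p = 0.125). The intervals are for this gene alone and are not adjusted over genes. Cpt1a was called lower in V4 without UNT.9576 (-1.03, adjusted p = 0.0456) and in Pico without ILB.9583 (-0.39, adjusted p = 0.0378).

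Within the mitochondrial cycle, the 4 genes of hydration, hydroxyacyl dehydrogenation and thiolysis gave 4 falls in TruSeq, 3 in Pico and 3 in V4, with medians of -0.68, -0.58 and -0.65. The 4 acyl-CoA dehydrogenases gave 2, 2 and 0 falls, with medians of -0.25, -0.35 and -0.21. Hadh, which encodes the hydroxyacyl-CoA dehydrogenase for short and medium chains (chr3:130936337-130975019, minus strand), had 2050, 2025 and 1681 TruSeq counts after IL-1β and 3194, 3330 and 3900 after saline. In Pico it had 540, 520 and 490 against 878, 933 and 957, and in V4 2526, 2664 and 1927 against 3434, 4007 and 4521. Every IL-1β library lay below every saline library, with log2 fold changes of -0.81 ± 0.11 in TruSeq (adjusted p = 0.000538), -0.81 ± 0.11 in Pico (7.66e-05) and -0.75 ± 0.17 in V4 (0.0163). Acaa2, the thiolase that releases acetyl-CoA, had 6572, 6388 and 6590 TruSeq counts against 9671, 10341 and 11311. Its Pico counts were 1653, 1678 and 1579 against 2519, 2566 and 2759, and its V4 counts 17144, 17912 and 16577 against 22658, 26228 and 27679. The IL-1β mice differed little from each other, and the log2 fold changes were -0.63 ± 0.09 (adjusted p = 0.000458), -0.65 ± 0.09 (4.75e-05) and -0.56 ± 0.11 (0.0095) in TruSeq, Pico and V4.

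Hadha and Hadhb encode the subunits of the trifunctional protein for long chains. Hadha fell in Pico and TruSeq (-0.47 and -0.52) and gave -0.48 in V4 (adjusted p = 0.121), with no overlap of treatments in any kit. Hadhb fell in V4 (-1.06) and TruSeq (-0.72) and gave -0.51 in Pico (adjusted p = 0.251), where it had only 49 to 103 counts. Of 125-base windows along the Hadhb transcript, 94.0% matched another place in the genome within 2 differences, so its counts are uncertain. Hadhb stood at 5.65 CPM per kilobase in the saline TruSeq libraries against 65.9 for Hadha. The lengths used were 6595 and 5341 bases of merged exons, while the longest coding transcripts have 2046 and 4020 bases. The size of this gap therefore depends on the annotation as well.

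Of the dehydrogenases, Acadl, which acts on long chains, fell in Pico and TruSeq (-0.43 and -0.57) and gave -0.41 in V4 (adjusted p = 0.0838). Its Pico call was lost without any 1 of UNT.9575, UNT.9576, ILB.9582 and ILB.9583 (adjusted p up to 0.0969). It was also lost with edgeR (0.120) and DESeq2 (0.103). Acads, for short chains, fell in Pico (-0.52), and Acadvl, for very long chains, fell in TruSeq (-0.23, adjusted p = 0.0474). Both of those calls were lost when any 1 of the 6 mice was left out (adjusted p up to 0.217 and 0.0923). In V4, which does not keep strand, 42.9% of the exon bases of Acadvl overlap Dvl2 on the opposite strand. Acadm, the medium-chain enzyme, gave -0.03 in Pico (95% interval -0.24 to 0.17), 0.09 in V4 (-0.25 to 0.43) and 0.08 in TruSeq (-0.14 to 0.30), and 4532, 4262 and 3767 TruSeq counts after IL-1β stood beside 3829, 4293 and 4111 after saline. The treatments overlapped in each kit, and with TMM factors its log2 fold change turned positive in Pico as well (0.0996).

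Of the enzymes for unsaturated fatty acids and the flavoproteins that pass electrons on to the respiratory chain, Decr1 alone fell in every kit. Decr1, the mitochondrial dienoyl-CoA reductase (chr4:15844387-15872654, minus strand), had 1590, 1585 and 1443 TruSeq counts against 2745, 2813 and 2578. Its Pico counts were 416, 369 and 364 against 558, 551 and 548, and its V4 counts 1066, 1353 and 998 against 2043, 1957 and 1649. These do not overlap, and the log2 fold changes were -0.77 ± 0.09 (adjusted p = 0.000202), -0.50 ± 0.13 (0.0093) and -0.72 ± 0.18 (0.0248) in TruSeq, Pico and V4. Eci1, an enoyl-CoA isomerase, gave -0.60, -0.39 and -0.40 in Pico, V4 and TruSeq and was called in TruSeq alone (adjusted p = 0.0428), a call that 5 of the 6 single mice removed when left out (adjusted p up to 0.156). Etfa and Etfb, the subunits of the electron transfer flavoprotein, and Etfdh, its dehydrogenase, ranged from -0.55 to -0.15. Etfb fell in Pico, Etfa and Etfdh in TruSeq, and none in V4. The TruSeq calls of Etfa and Etfdh were lost with TMM factors (adjusted p = 0.0911 and 0.196), edgeR (0.131 and 0.247) and DESeq2 (0.115 and 0.252), and that of Etfdh also without any 1 of UNT.9574, UNT.9575, ILB.9582 and ILB.9583 (up to 0.0906). Without UNT.9576 Etfdh was called lower in V4 (adjusted p = 0.0369). For Etfa, 29.1% of windows matched elsewhere in the genome.

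Among the 6 peroxisomal genes Hsd17b4 fell in every kit and Decr2 in Pico and TruSeq. Hsd17b4, the D-bifunctional protein of the peroxisomal cycle, had 4449, 4407 and 3710 TruSeq counts after IL-1β and 6266, 6185 and 6207 after saline. Pico held 1391, 1293 and 1271 against 1849, 1971 and 1865, and V4 held 3495, 3382 and 2795 against 5330, 5363 and 4517. The treatments stayed apart in all kits, with log2 fold changes of -0.53 ± 0.10 (adjusted p = 0.00223), -0.50 ± 0.09 (0.000979) and -0.65 ± 0.15 (0.0182) in TruSeq, Pico and V4. Decr2, the peroxisomal dienoyl-CoA reductase, showed the largest fall of the 6 in TruSeq (-0.999 ± 0.104, adjusted p = 0.000102) and Pico (-0.86 ± 0.13, adjusted p = 0.000231). In V4 it gave -0.56 ± 0.21 (adjusted p = 0.119), where saline mouse UNT.9576 had 1885 counts beside 2863 and 3032 in the other saline mice and 1441 to 1910 in the IL-1β mice. Without UNT.9576 it was called lower in V4 (-0.79, adjusted p = 0.0189). Crot, the peroxisomal carnitine octanoyltransferase, gave -0.34, -0.67 and -0.49 in Pico, V4 and TruSeq and was called in none, with saline mouse UNT.9576 the lowest of its group in each. Without that mouse Crot was called in all 3 kits, at adjusted p of 0.0412, 0.00654 and 0.0237 and log2 fold changes of -0.51, -1.06 and -0.76.

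Ehhadh, the L-bifunctional protein and a classical PPARα target (chr16:21761360-21787917, minus strand), had 3337, 2827 and 1989 TruSeq counts after IL-1β and 3626, 4315 and 3763 after saline. Pico gave 905, 775 and 597 against 883, 1055 and 998, and V4 gave 1430, 1658 and 1094 against 2167, 2573 and 1696. In CPM the treatments were apart in TruSeq only. The V4 counts were apart, but in CPM the highest IL-1β library (137.48) narrowly passed the lowest saline library (137.30). The log2 fold change was -0.51 ± 0.17 in TruSeq (adjusted p = 0.0425), -0.36 ± 0.14 in Pico (0.0876) and -0.61 ± 0.21 in V4 (0.0863). The TruSeq call was lost when any mouse other than ILB.9579 was left out (adjusted p up to 0.175).

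Acaa1a and Acaa1b are neighbouring paralogs for the peroxisomal thiolase (chr9:119250412-119259413, plus strand, and chr9:119057141-119066211, minus strand). Of the 125-base stretches of the Acaa1a transcript, 16.6% occurred unchanged in that of Acaa1b, and 17.4% in the reverse direction, so their counts are uncertain where the counting could split them. On the opposite strand Dlec1 covers 11.4% of the exon bases of Acaa1b and Myd88 3.67% of those of Acaa1a, which the V4 counts cannot separate. Acaa1a had 1348, 1444 and 1545 TruSeq counts after IL-1β and 1540, 1430 and 1721 after saline, 235, 322 and 261 against 304, 356 and 359 in Pico, and 4129, 4503 and 4117 against 4414, 5278 and 5511 in V4. Its log2 fold changes in TruSeq, Pico and V4 were -0.07, -0.30 and -0.24 (adjusted p = 0.637, 0.227 and 0.309), and the TruSeq value turned to 0.09 with TMM factors. Acaa1b had 7196, 7038 and 4709 TruSeq counts against 6207, 7334 and 8638, 1380, 1330 and 761 against 1236, 1598 and 1439 in Pico, and 18554, 18867 and 11514 against 15473, 20223 and 21609 in V4. In the same order its log2 fold changes were -0.20, -0.32 and -0.24 (adjusted p = 0.442, 0.246 and 0.499). Both overlapped between treatments in each kit, and in Acaa1b it was IL-1β mouse ILB.9583 that lay below all others. Without that mouse the TruSeq log2 fold change of Acaa1b was 0.0020.

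The medians of the mitochondrial and peroxisomal genes were both below 0 in every kit, and their order was not the same in the 3 kits. The median log2 fold change of the 16 mitochondrial genes was -0.41 in TruSeq, -0.50 in Pico and -0.45 in V4. That of the 6 peroxisomal genes was -0.50, -0.35 and -0.59. Of the 16 mitochondrial genes 12, 9 and 6 fell in TruSeq, Pico and V4, and of the 6 peroxisomal genes 3, 2 and 1, with none of either higher. Of all genes 21.8%, 10.8% and 7.41% fell. With only 6 peroxisomal genes these counts do not separate the classes. The summed CPM of the mitochondrial genes were 3291 ± 39.7 after IL-1β and 4369 ± 58.3 after saline in TruSeq (mean ± SD, n = 3), 2637 ± 66.4 and 3499 ± 58.3 in Pico, and 4738 ± 259 and 6326 ± 371 in V4. Those of the peroxisomal genes were 1559 ± 248 and 2083 ± 50.7 in TruSeq, 1279 ± 182 and 1689 ± 98.4 in Pico, and 2437 ± 419 and 3156 ± 247 in V4. Both sums were lower in every IL-1β library than in any saline library of the kit. The sums are not scaled by length, and abundant genes weigh most in them. In the V4 saline libraries Acaa1b averaged 1570 of the 3156 peroxisomal CPM and Acaa2 2099 of the 6326 mitochondrial CPM. In the TruSeq saline libraries these were 578 of 2083 and 817 of 4369. The log2 ratio of the sums was 1.09 ± 0.22 after IL-1β and 1.07 ± 0.05 after saline in TruSeq, 1.05 ± 0.20 and 1.05 ± 0.10 in Pico, and 0.973 ± 0.183 and 1.004 ± 0.099 in V4. These differences are smaller than the spread between mice. The ratio was the highest in IL-1β mouse ILB.9583 in all 3 kits (1.25, 1.18 and 1.34 in Pico, V4 and TruSeq), whose peroxisomal sum was low. No p is given for these sums, and with 1 mouse left out the difference between the medians took both signs in each kit.

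**Figure D3:**
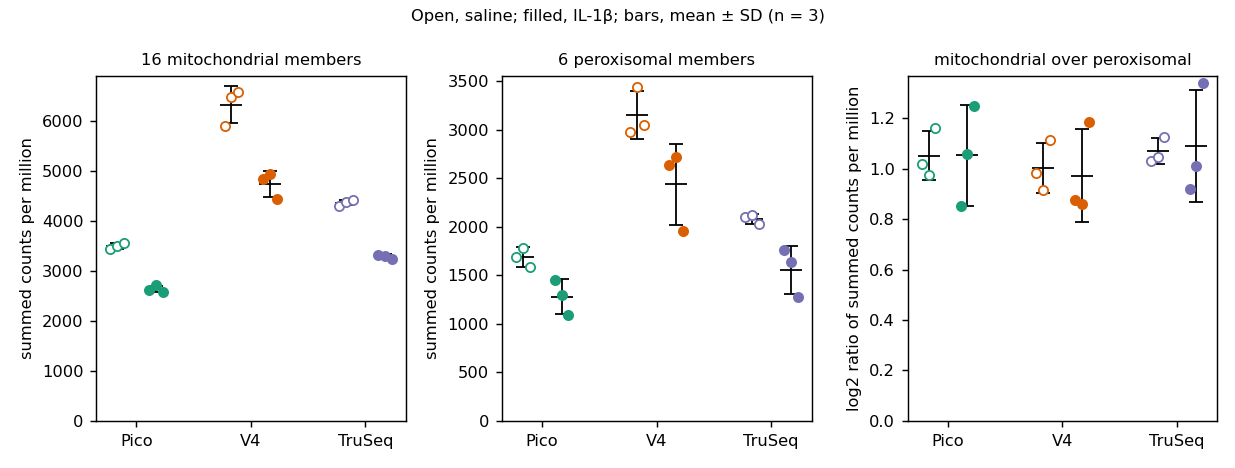
Summed CPM of the mitochondrial genes (left) and the peroxisomal genes (middle) and their log2 ratio (right) in every library. Open points are saline mice, filled points IL-1β mice, and bars give the mean and SD of 3 mice. Both sums are lower in every IL-1β library, while the ratios overlap, with the IL-1β mice between 0.85 and 1.34.

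The 2 enzymes found in both compartments were Crat, carnitine acetyltransferase, and Ech1, a dienoyl-CoA isomerase. Crat (chr2:30255991-30271333, minus strand) had 330, 381 and 337 TruSeq counts against 521, 625 and 878, 76, 136 and 94 Pico counts against 141, 167 and 215, and 307, 436 and 454 V4 counts against 694, 657 and 768. It fell in each kit, at -0.87 ± 0.18 (adjusted p = 0.00418), -0.77 ± 0.24 (0.0334) and -0.84 ± 0.21 (0.027) in TruSeq, Pico and V4. The V4 call was lost when any 1 of the 6 mice was left out (adjusted p up to 0.105) and the Pico call without any mouse other than ILB.9582 (up to 0.203). Exons of Gm16323 and Dolpp1 on the opposite strand cover 7.63% and 1.10% of its exon bases, which the V4 counts cannot separate. Ech1 gave -0.41, -0.32 and -0.32 in Pico, V4 and TruSeq and was called in TruSeq (adjusted p = 0.0385), a call lost without any mouse other than UNT.9574 (adjusted p up to 0.111). Bdh1, which turns acetoacetate into β-hydroxybutyrate, the main ketone body (chr16:31422366-31458987, plus strand), had 1509, 1314 and 1243 TruSeq counts against 2258, 2578 and 2437. Pico held 487, 387 and 336 against 580, 637 and 635, and V4 held 1212, 1081 and 896 against 1732, 1871 and 1746. All IL-1β libraries lay below the saline ones, at -0.80 ± 0.10 (adjusted p = 0.00034), -0.60 ± 0.14 (0.00622) and -0.75 ± 0.16 (0.0154) in TruSeq, Pico and V4.

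None of the 4 other PPAR targets was called lower, and 2 rose. Angptl4, a secreted inhibitor of lipoprotein lipase (chr17:33910695-33918520, minus strand), had 1783, 2113 and 2132 TruSeq counts after IL-1β and 1340, 1060 and 977 after saline. V4 held 3627, 4170 and 4264 against 2369, 1886 and 2110, and Pico held 350, 475 and 445 against 348, 385 and 209. The treatments were apart in TruSeq and V4 and overlapped in Pico, through saline mouse UNT.9575. It rose in TruSeq (0.89 ± 0.14, adjusted p = 0.000862) and V4 (0.93 ± 0.15, adjusted p = 0.00313) and gave 0.49 ± 0.20 in Pico (adjusted p = 0.103), where TMM factors brought it to 0.62 (adjusted p = 0.0279). Angptl4 was also called higher in Pico by edgeR (adjusted p = 0.000997) and DESeq2 (0.0260). Pex11a, which promotes division of peroxisomes, gave 0.24, 0.01 and 0.12 in Pico, V4 and TruSeq and was called in none, and with TMM factors it was called higher in TruSeq (0.28, adjusted p = 0.031), as it was by edgeR (0.0414) and DESeq2 (0.0280).

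Fgf21, a hormone of the fasted liver (chr7:52869277-52870860, minus strand), was counted at low depth. V4 held 67, 79 and 68 counts after IL-1β and 19, 6 and 21 after saline, a rise of 5.14-fold (log2 2.36 ± 0.57, adjusted p = 0.0237). TruSeq held 7, 25 and 26 against 9, 3 and 2 (2.02 ± 0.69, adjusted p = 0.0467), and Pico 2, 7 and 4 against 9, 0 and 0 (1.74 ± 1.05, adjusted p = 0.303). The treatments overlapped in TruSeq and Pico, and leaving out 5 of the 6 mice in turn removed the TruSeq call and 4 of them the V4 call (adjusted p up to 0.213 and 0.0943).

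Pdk4, a kinase that holds back the use of pyruvate (chr6:5433351-5446309, minus strand), was also low, and it had unlike values in the kits. TruSeq counted 85, 88 and 58 reads after IL-1β and 44, 47 and 70 after saline, and Pico 47, 32 and 26 against 8, 14 and 27. V4 counted 0, 6 and 0 against 21, 7 and 9. In TruSeq and Pico the treatments overlapped through saline mouse UNT.9576, and in V4 the IL-1β libraries lay below the saline ones. The log2 fold change was 0.57 ± 0.24 in TruSeq (adjusted p = 0.101), 1.22 ± 0.48 in Pico (0.0947) and -3.28 ± 1.04 in V4 (0.0694), none of them called by limma-voom with library totals, and the V4 value rests on 6 reads in all after IL-1β and depends on the prior count of the fit. Pdk4 was called higher in TruSeq with TMM factors (adjusted p = 0.0397), edgeR (0.0310) and DESeq2 (0.0346), and in Pico by edgeR (0.0264). With library totals it was called lower in V4 without ILB.9582 (0.0248) and higher in TruSeq without ILB.9583 (0.0405).

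Differences between kits in the response were not detected for any of the 33 genes. The interaction of kit and treatment called 0 of them at an adjusted p of 0.05 in Pico against TruSeq, V4 against TruSeq and Pico against V4, where 0.0% of 17207, 17147 and 16395 genes were called by limma-voom, and edgeR and DESeq2 also called 0 of the 33. At an unadjusted p under 0.05 each of these comparisons held 1 member, beside 5.49%, 6.36% and 5.49% of all genes. In Pico against TruSeq it was Acsl1, whose log2 fold change was less negative in Pico by 0.39 ± 0.16 (adjusted p = 0.900). In V4 against TruSeq and in Pico against V4 it was Pdk4, with differences of -3.85 ± 0.97 (95% interval -5.93 to -1.77, adjusted p = 0.355) and 4.51 ± 1.15 (2.09 to 6.93, adjusted p = 0.533). The median difference over the 33 genes was 0.04, 0.02 and 0.07. With the mouse as a block, 3, 2 and 1 members had an unadjusted p under 0.05, beside 7.43%, 7.37% and 6.23% of all genes, and 0 were called, beside 0.00581%, 0.0% and 0.0%. A gene called in 1 kit and not in another is therefore not shown to differ between them.

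Levels between genes are given as CPM per kilobase of merged exons over the 3 saline mice. Fabp1 was the highest member in every kit, at 6088 ± 386 (SD, n = 3) in TruSeq, 3720 ± 66.9 in Pico and 12734 ± 1404 in V4. Acaa2 came next (539 ± 38.5 in TruSeq), followed by Acaa1b (295 ± 46.3) and Etfb (184 ± 19.1), and the means of these 4 had the same order in each kit. In Pico, Acaa1b (176 ± 21.7) and Etfb (169 ± 7.61) did not differ beyond their spread. Below these 4 genes in TruSeq, Acadvl (157 ± 3.51) and Etfa (156 ± 4.55) did not differ beyond their spread, nor did Cpt1a (110.2 ± 13.97), Acadm (109 ± 5.61) and Ech1 (109 ± 13.1). The lowest members in TruSeq were Hadhb (5.65 ± 0.36), Pdk4 (1.20 ± 0.31) and Fgf21 (0.395 ± 0.323). The level of Hadhb carries the limits of mapping and exon length given above, and that of Acaa1b the limit of stretches shared with Acaa1a. The 33 genes together took 1.21% ± 0.03 of TruSeq counts after saline and 0.852% ± 0.065 after IL-1β, 0.906% ± 0.007 and 0.640% ± 0.041 of Pico counts, and 1.85% ± 0.12 and 1.45% ± 0.18 of V4 counts. Levels of single genes set the kits apart in the same mice. In V4 the CPM of Acaa2 and Acaa1b stood above TruSeq by 1.40 ± 0.07 and 1.42 ± 0.07 on the log2 scale (SD, 6 mice), and those of Hadha and Cpt1a below it by -1.62 ± 0.18 and -1.63 ± 0.41. The tables were normalized separately, and these are values side by side, not tests.

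Some mice stood apart for many of the genes, and did so in each kit. IL-1β mouse ILB.9583 had the lowest CPM of its group for 20 of the 33 genes in TruSeq, 22 in Pico and 24 in V4. It was the lowest in all 3 kits for 13 of the 31 genes that averaged 20 counts or more in each kit, or 41.9%, beside 12.4% of the 8960 genes of that level. The 13 were Cpt2, Acadm, Hadh, Eci1, Decr1, Etfa, Ehhadh, Hsd17b4, Acaa1b, Bdh1, Cd36, Fabp1 and Acsl5. Mean deviations of the 33 genes from the group, on the log2(CPM + 1) scale, were -0.10 in TruSeq, -0.12 in Pico and -0.12 in V4 for this mouse. Over all genes that averaged 20 counts or more in the group they were -0.02, -0.02 and -0.04. IL-1β mice ILB.9579 and ILB.9582 were the lowest in all kits for 5 and 0 of the 33 members. Among the 31 members of that level this was 12.9% and 0%, beside 8.44% and 3.69% of the 8960 genes. Of the saline mice, UNT.9576 was the lowest in all kits for 7 members (Cpt1a, Slc25a20, Decr1, Etfdh, Hsd17b4, Crot and Decr2), UNT.9574 for 6 and UNT.9575 for 0. These were 22.6%, 19.4% and 0% of the 31 members, beside 10.7%, 7.48% and 4.35% of the 8960 genes. As the same RNA was read 3 times, the repeat of a mouse over the kits is no independent sample of mice.

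**Figure D4:**
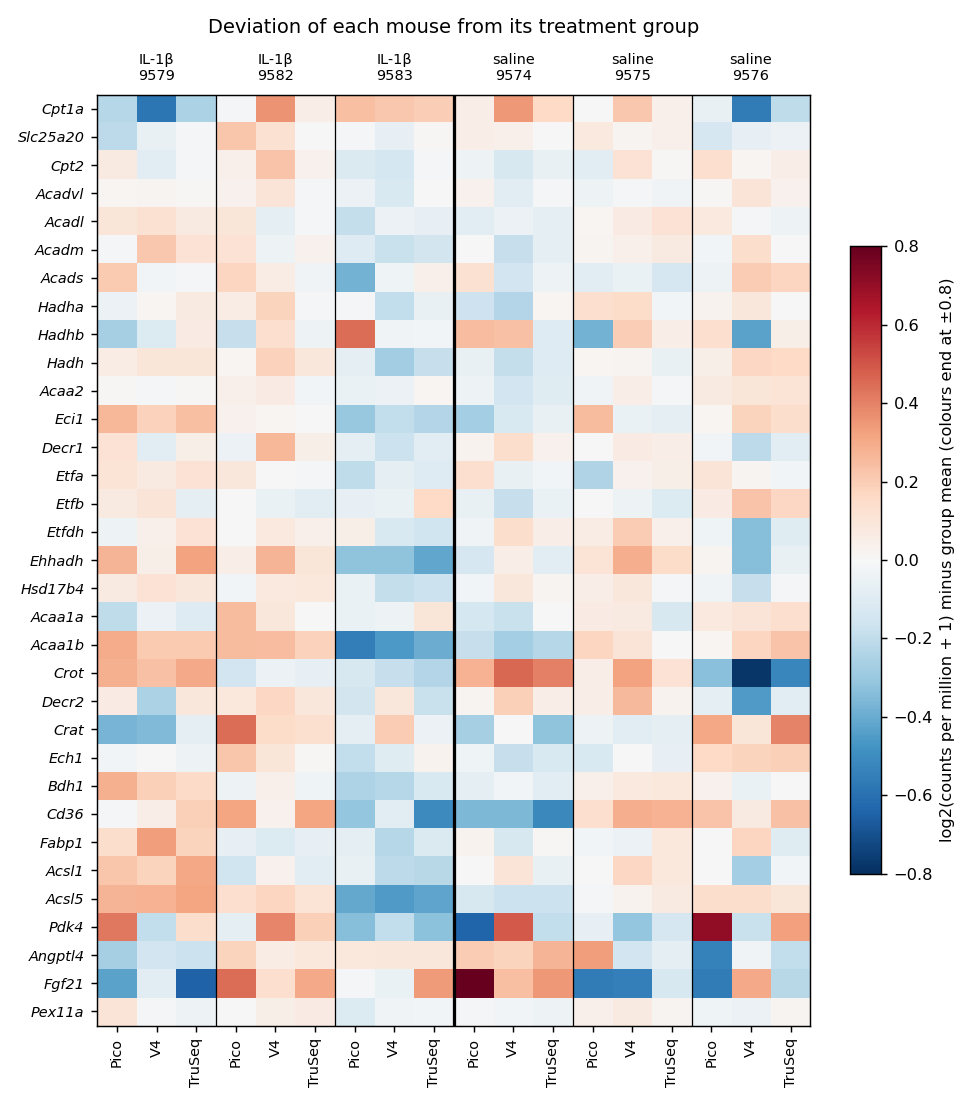
Deviation of each mouse from the mean of its treatment group, on the log2(CPM + 1) scale, for the 33 genes (rows) in each kit (columns). Blue is below and red above the group mean, with colours ending at 0.8 in either direction. The blue columns of IL-1β mouse ILB.9583 recur in the 3 kits, as do the low values of Crot and Cpt1a in saline mouse UNT.9576.

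The calls rest on single mice to a different degree. The TruSeq calls of all 9 genes that fell in every kit held when any 1 mouse was left out, with adjusted p of at most 0.0309. So did the V4 and Pico calls of Acsl1 (at most 0.00218 and 0.000117) and the Pico calls of Hadh, Acaa2 and Hsd17b4 (at most 0.0182). The Pico calls of the other 5 genes and the V4 calls of the other 8 were each lost without at least 1 mouse (adjusted p up to 0.203 and 0.114). In V4 the number of members that fell dropped to 1, Acsl1, without IL-1β mouse ILB.9583 or without saline mouse UNT.9575, and rose to 14 without saline mouse UNT.9576.

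Another 115 genes of the same pathways were taken from lists by function. Of those present in the tables, 42 of 113 fell in Pico and 5 rose, 35 of 112 fell in V4 and 3 rose, and 64 of 113 fell in TruSeq and 11 rose. With TMM factors the numbers were 33 and 10, 20 and 5, and 53 and 13. Their median log2 fold change was -0.48, -0.58 and -0.48 in Pico, V4 and TruSeq. Lists and members were chosen with earlier results of these data known, and the background percentages above apply to these counts too.

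Other mitochondrial oxidation enzymes gave 4, 4 and 14 falls of 17 in Pico, V4 and TruSeq, and no rise. Acad11, an acyl-CoA dehydrogenase, fell in all kits (-0.69, -0.95 and -0.93), and so did Gcdh, glutaryl-CoA dehydrogenase of lysine breakdown (-0.41, -0.54 and -0.48). Acad8, an enzyme of valine breakdown, fell in V4 and TruSeq (-0.67 and -0.51). Of 5 genes of ketone body metabolism 1, 2 and 3 fell. Bdh2 fell in V4 and TruSeq (-0.87 and -1.03).

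Of 14 other peroxisomal oxidation and import enzymes, 8, 7 and 10 fell in Pico, V4 and TruSeq and none rose. Phyh, the phytanoyl-CoA hydroxylase of branched fatty acids, gave -0.50, -0.42 and -0.57, Amacr, a racemase of branched acyl-CoA, -0.78, -0.93 and -0.88, and Pecr, a trans-2-enoyl-CoA reductase, -0.50, -0.65 and -0.68, and all 3 genes fell in all kits. Of 15 peroxins, which build peroxisomes, 13 were in the tables, of which 2, 1 and 9 fell and 0, 0 and 1 rose. Pex16 fell in Pico and TruSeq (-0.67 and -0.46).

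Thioesterases, which split acyl-CoA, held some of the largest changes of the pathway genes. Acot4 fell by -2.27, -2.59 and -2.60 in Pico, V4 and TruSeq, Acot1 by -1.91, -1.82 and -1.44, and Acot12 by -1.31, -1.36 and -1.33, while 3, 3 and 4 of the 10 thioesterases fell in all and 0, 0 and 1 rose. Acot1 has near-identical neighbouring paralogs, and its counts are uncertain. Of 14 genes of transport and activation 5, 3 and 6 fell and 1, 2 and 2 rose. The medium-chain synthetases Acsm5 (-1.50, -1.23 and -1.44) and Acsm3 (-0.78, -0.86 and -0.85) and the transporter Slc27a2 (-0.65, -0.81 and -0.74) fell in all kits. Acaca, the carboxylase that makes malonyl-CoA, the inhibitor of Cpt1a, fell in all kits (-1.06, -1.70 and -1.34), as did Mlycd, the decarboxylase that removes it (-1.30, -1.18 and -0.999).

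PPARα itself was not called. Ppara, named after its values were seen, gave -0.40, -0.36 and -0.14 in Pico, V4 and TruSeq (adjusted p = 0.0717, 0.301 and 0.617). Of the 16 genes for PPARα, its partners and its coactivators 6, 5 and 3 fell and 1, 0 and 3 rose. The coactivator Ppargc1b fell in all kits, from 4.31 ± 0.71 to 0.753 ± 0.326 CPM in TruSeq (-2.54 ± 0.35, adjusted p = 0.000543), and the retinoid X receptor Rxrg fell from 4.59 ± 1.33 to 0.592 ± 0.262 (-2.90 ± 0.43, adjusted p = 0.000701). Lpin1, a coactivator and phosphatidate phosphatase, rose in Pico and TruSeq (0.95 and 1.28). Of 21 other PPARα targets 11, 8 and 13 fell and 3, 1 and 4 rose. The lipid droplet genes Cidec (3.76, 1.88 and 2.54, called in all kits) and Plin4 (2.32 in Pico and 3.03 in TruSeq, called in both) were among those that rose, and Txnip, a regulator of redox state and glucose uptake, fell in all kits (-1.43, -1.64 and -1.63).

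Some markers of cell types were called after IL-1β. Beside the counts below, 10.8%, 7.41% and 21.8% of all genes fell and 6.78%, 3.6% and 12.3% rose in Pico, V4 and TruSeq. Lists with only 1 or 2 called markers cannot be told from these shares. Of 10 hepatocyte markers 8, 2 and 6 fell and 2, 1 and 2 rose in Pico, V4 and TruSeq, with medians of -0.34, -0.32 and -0.34, and with TMM factors 3, 2 and 3 fell. Their summed level in TruSeq was 71012 to 77600.5 CPM after IL-1β and 93598 to 113191 after saline, and in V4 these ranges overlapped. Of 9 neutrophil markers, of which 7, 8 and 9 were in the tables, 7, 6 and 7 rose, from a summed 3.36 to 6.16 CPM after saline to 48.1 to 94.0 after IL-1β in TruSeq, 0.971 to 5.14 to 42.3 to 59.4 in Pico, and 2.15 to 5.24 to 43.5 to 86.5 in V4. Of 11 Kupffer cell and macrophage markers 4, 3 and 6 fell and 0, 0 and 1 rose, of 8 endothelial markers 4, 3 and 5 fell and 2, 0 and 1 rose, and of 8 stellate cell markers 3, 1 and 3 fell. Bile duct markers rose in 1, 0 and 2 of 4 cases, T and B cell markers fell in 0, 0 and 2 of 5, and no red cell or adipocyte marker was called. Of 4 adipocyte markers 1 was in the tables, at or near 0, and red cell markers were present in perfused livers at 141 to 230 summed CPM in TruSeq. The part of these shifts in the values of the 33 genes was not tested.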

How the data were processed

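RNA-Seq gene counts of 18 libraries (3 IL-1β and 3 saline mice, 3 kits) were used. The authors aligned reads to mm9 with GSNAP, took out ribosomal reads, resampled to an equal depth within each kit and counted reads per gene, keeping sense reads alone for the stranded kits and reads of either strand for V4. The deposited values are these counts, as whole reads, in 3 tables normalized separately. The run behind the Pico table is not stated, and TruSeq libraries came from an earlier study. The members and gene lists were chosen with earlier results of these data known.

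Each kit was fitted with limma-voom (limma 3.58.1, R 4.3.3) on library totals, with Benjamini-Hochberg adjustment over all genes with at least 1 count, and kits were compared with an interaction on 12 libraries. Mouse numbers pair the kits because the same RNA was used. Deviations of a mouse from its group correlated across genes at 0.0591 to 0.406 over the kit pairs. Replicates differed beyond sampling noise (chi-square per degree of freedom of at least 7.04). Alternatives were edgeR 4.0.16, DESeq2 1.42.0, TMM factors, a filter of 10 counts in 3 libraries, thinning to 4024632 counts, 1 fit of 18 libraries and leaving out each mouse. The fits were tested on simulated data. Windows of 125 bases, moved by 5, were mapped to the genome with minimap2 2.31, and those that match it unspliced elsewhere were counted. Values in every library are given for genes called in the same direction in all kits and for Cpt1a, Ehhadh, Acaa1a, Acaa1b, Pdk4, Angptl4 and Fgf21. Of the pathway genes, at most 3 per list are named, those called alike in at least 2 kits with the smallest TruSeq p. Some of the genes that this rule selects are not reported here. Protein sequences were not analysed here. Numbers were tabulated with Python 3.11.15.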

Additional observations from a re-analysis of the deposited data

How the results depend on the processing

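The counts of calls moved with the scaling, the tool, the threshold and the mice. The members that fell in V4 numbered 5 with TMM factors, 4 with edgeR and 20 in 1 fit of all 18 libraries, in place of 10, and in TruSeq 12 with edgeR in place of 20. The members that rose in Pico numbered 2 with TMM factors, 3 with edgeR, 2 with DESeq2, 1 with the filter on low counts and 2 at an adjusted p of 0.1, in place of 0. Those that rose in TruSeq numbered 4 with TMM factors, 4 with edgeR, 5 with DESeq2, and 1 each with the filter, in 1 fit of all libraries and at an adjusted p of 0.01, in place of 2. At 0.01 V4 kept 2 lower and 1 higher. The mitochondrial median became -0.25 in TruSeq, -0.37 in Pico and -0.28 in V4 with each of TMM factors, edgeR and DESeq2, and the peroxisomal median in TruSeq -0.34 with each. The peroxisomal median became -0.22, -0.21 and -0.22 in Pico and -0.42, -0.44 and -0.43 in V4 with these. Uncalled values turned positive under TMM factors, edgeR and DESeq2 for Acadm in Pico (0.0996, 0.101 and 0.0963), Acadvl in V4 (0.0101, 0.0115 and 0.0160) and Acaa1a in TruSeq (0.0896, 0.0883 and 0.0879). The cause was not tested. A direct repeat with at most 1 mismatch was found for 1 member in place of 4.

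With 1 mouse left out, the members that fell ranged from 15 to 18 in TruSeq, 10 to 13 in Pico and 1 to 14 in V4, and those that rose from 1 to 2, 0 to 1 and 1 to 2. The mitochondrial median ranged from -0.48 to -0.39, -0.49 to -0.45 and -0.51 to -0.38 in the same order, the peroxisomal median from -0.61 to -0.34, -0.49 to -0.27 and -0.76 to -0.45, and their difference from -0.060 to 0.14, -0.18 to 0.026 and -0.060 to 0.30. Uncalled values that changed sign were those of Acadm in Pico (-0.091 to 0.018) and V4 (-0.017 to 0.18), Acsl5 in Pico (-0.33 to 0.015), Pex11a in V4 (-0.0080 to 0.050) and Acaa1b in TruSeq (-0.31 to 0.0020). Leaving out a mouse removes 1 of 3 replicates, and values of single genes lost their call 90 times and gained one 13 times. With a replicate block for the mouse, the interaction called 0 of the 33 members in each comparison, with smallest adjusted p of 0.422, 0.493 and 0.625, and changed no call of a member. Counting Crat and Ech1 as peroxisomal, leaving out Acaa1a and Acaa1b, and thinning to an equal depth kept the order of the medians in each kit. The planned check of protein features was not run. Counts were under 100 in every library for Fgf21 and Pdk4, so counting error limits these most.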
